A study of Mus musculus with 2 samples.

Results

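Vasoactive genes were followed through tumors of mice with and without a pericyte-directed deletion in soluble guanylate cyclase (sGC), the receptor for nitric oxide. They were the peptide ligand *Edn1*, its processing enzyme *Ece1*, the endothelin receptors *Ednra* and *Ednrb*, the alpha-2A adrenoceptor *Adra2a* and the angiotensin receptor *Agtr1a*, 6 of the 32285 genes in the count matrices. All 6 were named in the matrices. They were selected on values measured in these same libraries, so what follows describes their levels and carries no test.

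Endothelin-1 is made mainly by endothelial cells (ECs) as a long precursor that endothelin converting enzyme 1 (ECE1) cleaves to the active peptide. The A receptor on pericytes and smooth muscle cells couples through Gq to calcium release and contraction, whereas the B receptor on ECs triggers nitric oxide release and clears the peptide, and on mural cells it can also constrict. Nitric oxide in turn activates sGC in the neighboring pericyte, and the cyclic GMP made there relaxes the cell. Adrenaline and noradrenaline, through *Adra2a*, and angiotensin II, through *Agtr1a*, act on the tone of small vessels as well.

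The tumors were Lewis lung carcinoma (LLC), an established mouse lung cancer line grown under the skin of C57BL/6 mice. The sGC Ctr mice carried Gucy1b1 flox/flox, and the sGC ∆PC mice carried Cspg4-CreER T2 on top of the same floxed alleles, where Gucy1b1 encodes the sGC beta-1 subunit and Cspg4 (NG2) drives the recombinase in pericytes and in any other cell that uses this promoter. Both genotypes were given tamoxifen, 5 doses starting at an age of 4 weeks, were inoculated at 8 weeks, and had their tumors removed 2 weeks later. Cells of 3 tumors were pooled into 1 droplet library per genotype, so mouse-to-mouse spread was not measured and genotype and library cannot be told apart. Every interval below is a 95% interval that covers counting error only.

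The sGC Ctr library held 15007 barcodes and 487859656 unique molecular identifiers (UMIs, each standing for 1 captured RNA molecule), and the sGC ∆PC library 25631 barcodes and 436352742 UMIs. After filtering, 12220 and 22498 cells remained, with median depths of 35776.5 and 8685 UMIs. Marker gates put 55 and 47 cells in the endothelial-like class, 38 and 26 in the pericyte-like class, 120 and 172 in the fibroblast-like class and 2100 and 2295 in the macrophage-like class. A gate is a range on a score and not a cell type by itself: 0 and 3 EC-like cells and 0 and 1 pericyte-like cells lay within 0.2 of the score cut. The libraries shared 131 barcode sequences, and no EC-like or pericyte-like cell had such a barcode with a cell of either class in the other library. Barcodes that passed more than 1 gate, the cancer cell gate not counted, were kept apart as mixed droplets. So were those that passed just 1 of the counted gates with a cancer-cell RNA share of 25% or more. Mixed droplets were 4.54% and 10% of kept cells. Without the limit on that share the pericyte-like class had 39 and 47 cells, the EC-like class 63 and 65 and the fibroblast-like class 150 and 415. The limit thus removed more cells in sGC ∆PC in each of these classes. In the pericyte-like cells kept, the median share was 4.19% and 9.46%. The share set the level of 4 cancer cell markers in a barcode against the median of barcodes passing the cancer cell gate. It is not the fraction of a cell's RNA that came from cancer cells.

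In the pericyte-like cells *Gucy1b1* held 59 UMIs in sGC Ctr against 12 in sGC ∆PC. Scaled to CPM, UMIs per 1000000 UMIs of the class, that was 124.7 and 43.81 CPM, a log2 ratio of -1.51 (-2.54 to -0.60). *Cspg4* itself was at 164.9 and 80.32 CPM, a log2 ratio of -1.04 (-1.79 to -0.34). The *Gucy1b1* difference lay in the direction that the genotype labels give for the sGC ∆PC library, with *Gucy1b1* RNA still present in the class. The labels give no direction for *Cspg4* RNA. The authors describe the Cspg4-CreER T2 mice as knock-in mice, and the part of the knock-in in the *Cspg4* value was not tested. Of the 10 endothelial markers, 5 had no UMI in the pericyte-like cells of sGC Ctr and 6 had none in those of sGC ∆PC, with *Pecam1*, *Cldn5*, *Tie1*, *Kdr* and *Tek* at 0 in both. The summed endothelial markers were at 317.1 and 266.5 CPM there, against 7699 and 6828 CPM in the EC-like cells. The 8 contractile genes of smooth muscle summed to 5998 and 5385 CPM in the pericyte-like class, which can therefore hold smooth muscle cells. The median fibroblast score was 1.09 and 1.16 there, against 3.21 and 2.87 in fibroblast-like cells, and macrophage markers summed to 222 and 547.7 CPM against 30521 and 28256 CPM in macrophage-like cells.

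The genes lie on 5 mouse chromosomes in mm10. *Edn1* spans chr13:42301476-42307990 (plus strand), *Ece1* chr4:137862237-137965229 (plus), *Ednra* chr8:77663031-77724464 (minus), *Ednrb* chr14:103814625-103844402 (minus), *Adra2a* chr19:54044151-54048982 (plus) and *Agtr1a* chr13:30336441-30382867 (plus). The 250 bases before the RefSeq transcription start are shown for the ligand and both endothelin receptors. They lie at chr13:42301226-42301475 on the plus strand for *Edn1*, at chr8:77724453-77724702 on the minus strand for *Ednra* and at chr14:103843702-103843951 on the minus strand for *Ednrb*, in GRCm38.p6, and capitals mark matches to the motifs searched.
Edn1: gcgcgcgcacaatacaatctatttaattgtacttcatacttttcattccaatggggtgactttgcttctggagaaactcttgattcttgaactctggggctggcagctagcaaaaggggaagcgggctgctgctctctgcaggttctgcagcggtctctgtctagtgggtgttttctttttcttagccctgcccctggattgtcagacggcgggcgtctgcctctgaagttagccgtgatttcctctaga
Ednra: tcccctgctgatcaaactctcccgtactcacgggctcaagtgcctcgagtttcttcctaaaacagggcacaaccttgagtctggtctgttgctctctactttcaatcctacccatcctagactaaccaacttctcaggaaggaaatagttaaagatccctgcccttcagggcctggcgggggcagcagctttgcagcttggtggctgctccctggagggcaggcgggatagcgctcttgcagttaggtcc
Ednrb: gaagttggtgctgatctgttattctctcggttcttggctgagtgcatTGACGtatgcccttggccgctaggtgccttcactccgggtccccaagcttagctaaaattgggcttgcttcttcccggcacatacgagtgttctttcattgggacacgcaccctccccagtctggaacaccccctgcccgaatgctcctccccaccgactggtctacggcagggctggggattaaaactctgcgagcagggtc
The *Ednrb* window lies in the first intron of the longest annotated *Ednrb* transcript and upstream of 2 shorter ones. Motifs were searched on both strands of the 250 bases. Among 32851 such RefSeq windows, the AP-1 motif TGANTCA was in 6.75%, the RBPJ core TGGGAA in 21.6%, the GATA motif AGATAA in 9.99%, the hypoxia response core ACGTG in 16.6%, the cyclic AMP response core TGACG in 17.8% and the TATA box TATAAA in 12.4%. The single match in the 3 windows was TGACG in *Ednrb*, 203 to 199 bases before the start. A match describes the letters only. Windows were found for 5 of the 6 genes, and that of *Adra2a* is not printed because it overlaps an annotated 5′ untranslated region. The printed *Ednra* and *Ednrb* windows also overlap their annotated genes, that of *Ednra* by a few bases. The *Adra2a* window held matches to the RBPJ, hypoxia response, cyclic AMP response and TATA box motifs. Among the unprinted *Ece1* windows, matches to the hypoxia response and RBPJ cores were found.

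*Edn1*, the ligand, was found mainly in ECs and its level was higher in the sGC ∆PC library. EC-like cells held 86 *Edn1* UMIs in sGC Ctr against 191 in sGC ∆PC, levels of 55.51 CPM (44.4 to 68.55) and 182.7 CPM (157.7 to 210.6). The log2 ratio of sGC ∆PC over sGC Ctr was 1.72 (1.34 to 2.10), a 3.29-fold higher level. Among 5998 genes with at least 50 UMIs in this class, 0.700% were at least 2-fold higher in sGC ∆PC and 0.900% at least 2-fold lower, and the middle 50% of genes had log2 ratios between -0.20 and 0.22. *Edn1* and *Ednrb* lay past the 2-fold lines on opposite sides and *Ece1* lay between those lines. Nothing follows from that position, since these values chose the genes.

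The *Edn1* UMIs came from a minority of ECs. They were found in 12 of 55 EC-like cells in sGC Ctr, 21.8% (exact binomial interval 11.8% to 35%), and in 20 of 47 in sGC ∆PC, 42.6% (28.3% to 57.8%). With each cell thinned at random to 2000 UMIs, in a first draw from which all thinned shares below are taken, the shares were 9.09% (3.02% to 20%) and 21.3% (10.7% to 35.7%). Cells of 1 library are not replicates of a genotype, so these shares were not tested. In granulocyte-like cells, which served as the background of free RNA, no *Edn1* UMI was seen in 211 and 263 cells of median depth 2252 and 2542 UMIs. The 3 highest EC-like cells held 37, 11 and 9 UMIs in the sGC Ctr library, while those of sGC ∆PC held 34, 26 and 25.

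A single sGC Ctr cell thus held 43% of the *Edn1* UMIs of its class. Without the top cell of each library, 49 and 157 UMIs remained and the log2 ratio was 2.27 (1.80 to 2.77). Where every cell counted equally, the mean over cells was 0.652 ± 2.08 *Edn1* UMIs per 10000 UMIs in sGC Ctr (SD over 55 cells) and 1.35 ± 2.52 in sGC ∆PC (SD over 47 cells), and the log2 ratio dropped to 1.05. The first draw of thinning left 9 and 14 *Edn1* UMIs and a log2 ratio of 0.86 (-0.45 to 2.25), a second draw 10 and 13 UMIs and 0.61 (-0.70 to 1.95), and both intervals include no difference. With a cancer-cell RNA limit of 10% it was 2.40 (1.94 to 2.89). The direction was the same in all of these and the size ranged from 0.61 to 2.40.

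**Figure D1:**
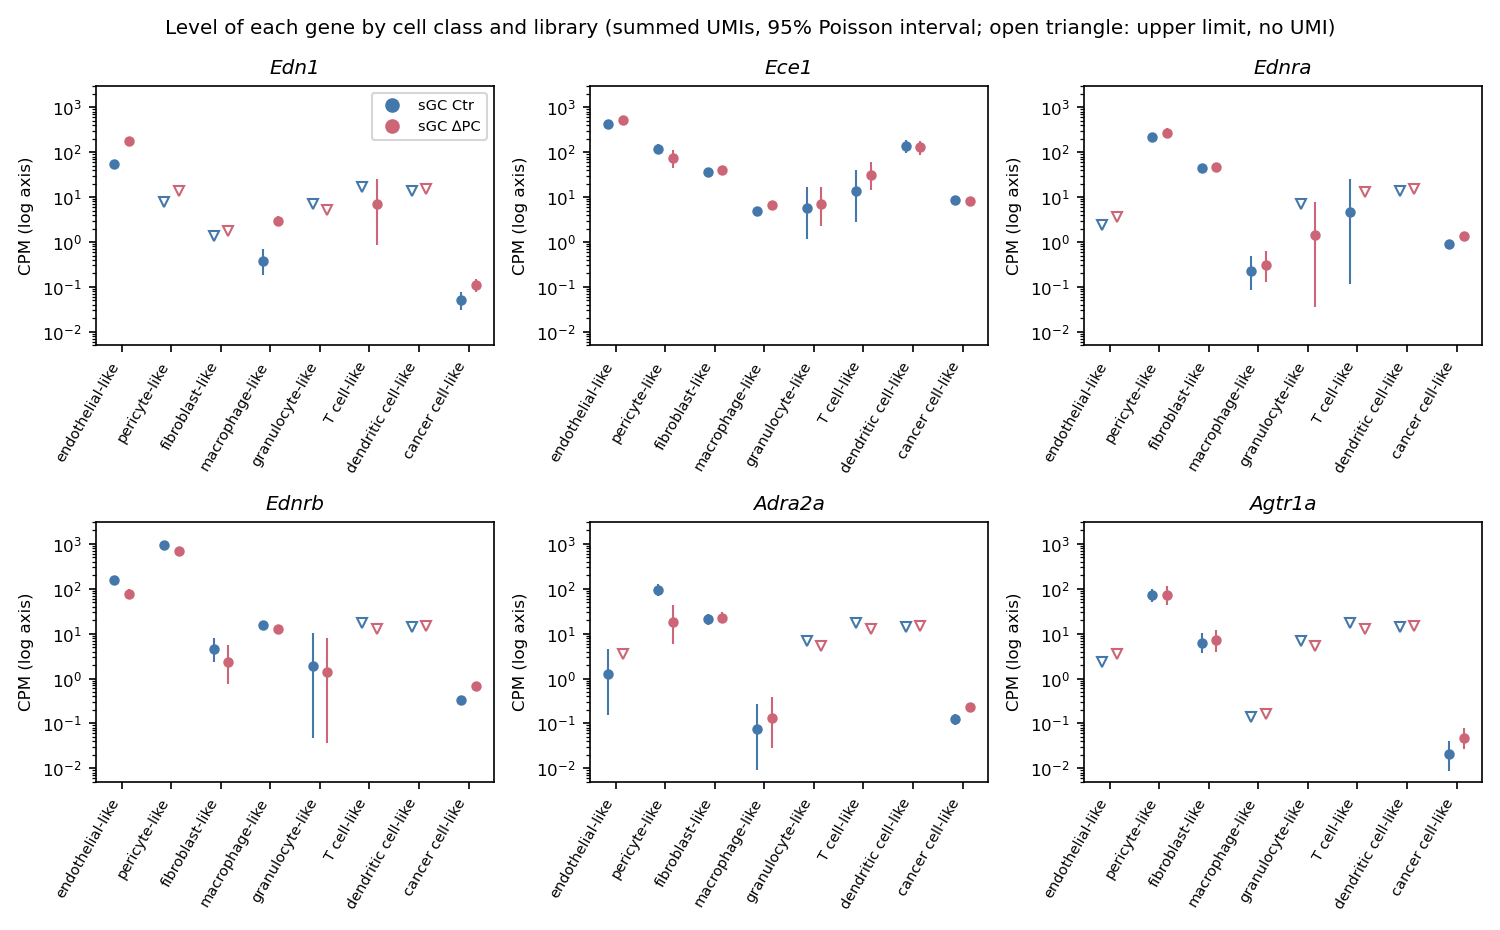
Level in CPM (log axis) of each of the 6 genes in 8 marker-gated cell classes, with sGC Ctr in blue and sGC ∆PC in red, 95% Poisson intervals as bars and open triangles as upper limits where no UMI was found. *Edn1* was highest in EC-like cells, at 55.51 and 182.7 CPM, and both endothelin receptors were highest in pericyte-like cells.

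Outside ECs *Edn1* was close to absent. No UMI was found in the 38 and 26 pericyte-like cells, which allows a share of cells with a UMI of up to 7.89% and 11.5%, nor in the 120 and 172 fibroblast-like cells, which allows up to 2.5% and 1.74%. Macrophage-like cells held 10 UMIs in 9 of 2100 cells in sGC Ctr and 65 UMIs in 14 of 2295 cells in sGC ∆PC. Of those 65, 45 lay in 1 cell, so the macrophage level of 2.913 CPM in sGC ∆PC against 0.3804 in sGC Ctr rests largely on that cell. Cancer cell-like cells were at 0.051 and 0.1077 CPM. In the order of levels, EC-like cells came first in both libraries and their interval overlapped that of no other class with at least 20 cells.

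EC-like cells with at least 2 *Edn1* UMIs were compared with those holding none, as a description. Genes were ranked by the smaller of their differences in the 2 libraries. Among the first 8 was *Icam1*, a leukocyte adhesion molecule, at 111.8 against 36.21 CPM in sGC Ctr and 77.24 against 18.62 CPM in sGC ∆PC. *Glul*, glutamine synthetase, was at 283.2 against 81.26 CPM and at 119.5 against 39.56 CPM. *Cebpd*, a transcription factor of the acute-phase response, was at 164 against 64.37 CPM and at 283.2 against 72.14 CPM. Others differed more in 1 library than in the other: *Bgn*, the matrix proteoglycan biglycan, was at 599.9 against 5.632 CPM in sGC Ctr but at 38.62 against 6.981 CPM in sGC ∆PC, and *Sema3g*, a secreted semaphorin, at 130.4 against 3.218 CPM and at 66.2 against 20.94 CPM. These cells numbered 10 and 15, and in sGC ∆PC they were deeper than those without the ligand, with a median of 35105 against 11717 UMIs.

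*Ece1* was detected in nearly every EC and differed less between the libraries. EC-like cells held 645 and 559 UMIs, in 54 of 55 and 44 of 47 cells, at 416.3 CPM (384.8 to 449.7) in sGC Ctr and 534.8 CPM (491.4 to 581) in sGC ∆PC. The log2 ratio was 0.36 (0.20 to 0.53), within 2-fold. In thinned cells it was 0.42 (-0.21 to 1.06) in the first draw, from 41 and 47 UMIs, and 0.95 (0.34 to 1.58) in the second, from 37 and 61. The enzyme was more evenly spread over ECs than the ligand: the top 3 cells held 21.7% and 17.5% of the *Ece1* UMIs of the class, against 66.3% and 44.5% of those of *Edn1*.

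After ECs the highest *Ece1* levels were those of dendritic-like cells, at 135.8 and 129.6 CPM, and of pericyte-like cells, at 120.5 and 73.02 CPM, and the intervals of these classes overlapped in both libraries. The pericyte-like difference, from 57 and 20 UMIs, had a log2 ratio of -0.72 with an interval from -1.54 to 0.03 that includes no difference. With droplets that passed 2 gates kept in their better class it was 0.25 (-0.33 to 0.83). Fibroblast-like cells were at 37.27 and 40.91 CPM. Macrophage-like cells held 126 and 148 UMIs, at 4.793 and 6.633 CPM, and cancer cell-like cells 8.424 and 8.382 CPM. Because cancer cell-like cells were so many, they held 64.7% and 63.5% of all *Ece1* UMIs of kept cells despite that low level, and EC-like cells 12.6% and 12.7%.

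**Figure D2:**
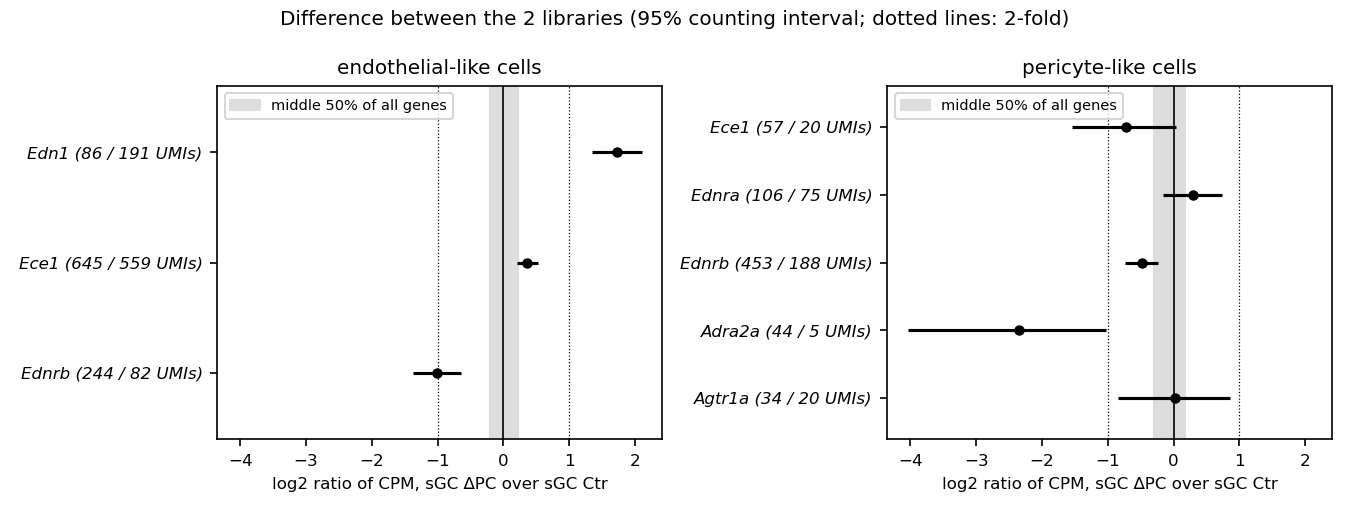
Log2 ratio of CPM, sGC ∆PC over sGC Ctr, for each gene with at least 20 UMIs in EC-like (left) and pericyte-like cells (right), with 95% counting intervals, the middle 50% of all genes as a gray band and dotted lines at 2-fold. *Edn1* lay at 1.72 and *Ednrb* at -1.01 in EC-like cells, and *Adra2a* at -2.35 in pericyte-like cells.

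*Ednra* separated mural cells from endothelium. In pericyte-like cells it was at 224.1 CPM (183.5 to 271.1) in sGC Ctr, from 106 UMIs in 32 of 38 cells, and at 273.8 CPM (215.4 to 343.3) in sGC ∆PC, from 75 UMIs in 19 of 26 cells. The log2 ratio was 0.29 with an interval from -0.16 to 0.73, so no difference was resolved at this depth. In the EC-like cells no *Ednra* UMI was found among 1549324 and 1045301 UMIs, and a count of 0 allows up to 1.936 and 2.87 CPM. Fibroblast-like cells came second, at 45.46 and 46.14 CPM from 122 and 97 UMIs, a log2 ratio of 0.02 (-0.38 to 0.42). That ratio was -0.41 (-0.76 to -0.07) without the limit on cancer-cell RNA, from 150 and 415 cells. In the draws of thinned cells it was 0.63 (-0.62 to 1.98) and -0.29 (-1.64 to 1.06). Under the reported filters the interval of the fibroblast-like level overlapped neither that of the pericyte-like cells above nor that of the next class below.

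*Ednrb* was found in pericyte-like, EC-like and macrophage-like cells, in that order in both libraries with no overlap between neighbors. Pericyte-like cells held 453 UMIs in sGC Ctr against 188 in sGC ∆PC, at 957.7 CPM (871.6 to 1050) and 686.4 CPM (591.8 to 791.9). The log2 ratio there was -0.48 (-0.73 to -0.23), within 2-fold, while the median gene of the class was at -0.07. With a cancer-cell RNA limit of 10% it was -1.08 (-1.49 to -0.70), from 29 and 14 cells. EC-like cells held 244 and 82 UMIs, at 157.5 CPM (138.3 to 178.5) and 78.45 CPM (62.39 to 97.37). The log2 ratio in EC-like cells was -1.01 (-1.38 to -0.64), a level 2.01-fold lower in sGC ∆PC and therefore just at the 2-fold line. Thinning gave values that differed with the draw: 24 and 7 *Ednrb* UMIs and a log2 ratio of -1.55 (-3.01 to -0.29) in the first, 12 and 9 UMIs and -0.19 (-1.61 to 1.18) in the second. As a mean over cells, each counted equally, the log2 ratio was -0.80.

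Before thinning, the *Ednrb* UMIs were spread over more EC-like cells than those of *Edn1*. The receptor was found in 38 of 55 cells in sGC Ctr and 26 of 47 in sGC ∆PC, with a median of 1.2 and 0.278 UMIs per 10000. In thinned cells the *Ednrb* shares were 23.6% (13.2% to 37%) and 10.6% (3.55% to 23.1%), against 9.09% and 21.3% for *Edn1*. The order was thus the other way in sGC ∆PC, and the intervals of these genes overlapped in both libraries. The 3 highest sGC Ctr cells held 23, 23 and 19 UMIs, those of sGC ∆PC 9, 8 and 7, and without the top cell of each library 221 and 73 UMIs remained and the interval of the log2 ratio was -1.41 to -0.62. Pericyte markers were measured beside it, because pericyte-like cells had the higher *Ednrb* level: they summed to 640.3 CPM in the EC-like cells of sGC Ctr and 706 CPM in those of sGC ∆PC, against 11290 and 10866 CPM in pericyte-like cells. Of the 10 pericyte markers, 9 and 6 had a UMI in EC-like cells, so the sum is spread unevenly over the list. *Rgs5* held 1 and 2 UMIs there, 0.6454 and 1.913 CPM, against 4582 and 4666 CPM in pericyte-like cells. *Mcam* (CD146), also on the list, is reported by the authors in tumor ECs as well as pericytes. The part of pericyte RNA in the *Ednrb* value was not tested.

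**Figure D3:**
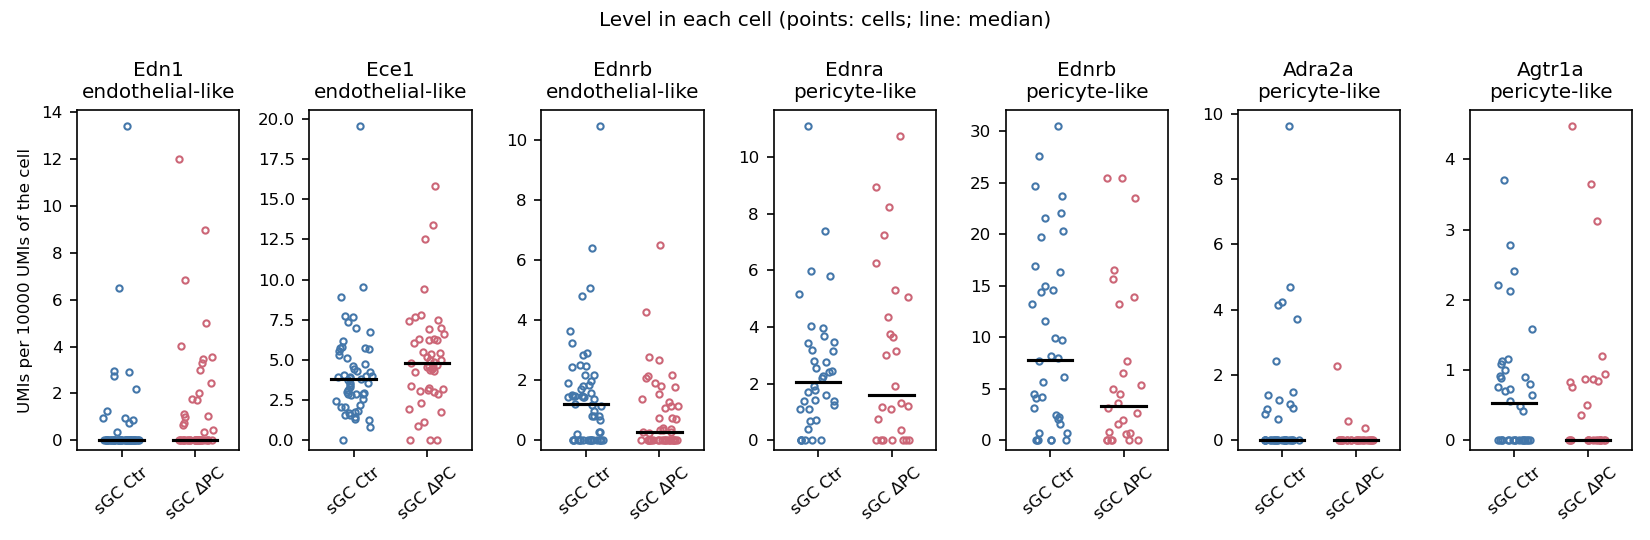
UMIs per 10000 UMIs in each of the 55 and 47 EC-like cells and the 38 and 26 pericyte-like cells of sGC Ctr (blue) and sGC ∆PC (red), with cells as points and medians as black lines. *Edn1* and *Adra2a* had a median of 0 in both libraries, and the *Ednrb* median was 1.2 and 0.278 in EC-like cells and 7.83 and 3.35 in pericyte-like cells.

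Most pericyte-like cells held both endothelin receptors. UMIs of *Ednra* and *Ednrb* were found together in 28 of 38 cells in sGC Ctr and 15 of 26 in sGC ∆PC. *Ednra* alone was found in 4 and 4 cells, *Ednrb* alone in 4 and 5, and neither in 2 and 2. Median depth was 11018.5 UMIs in the 28 and 11849 in the other cells of sGC Ctr, but 10983 in the 15 and 6616 in the other cells of sGC ∆PC, so in that library the cells with both receptors were the deeper ones.

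The class was also split at the median contractile level of each library, 1648 and 1182 CPM, a split chosen after the values were seen. In the 19 pericyte-like cells of sGC Ctr at or below the median contractile level *Ednrb* was at 1205 CPM (1061 to 1362), and in the 19 above it at 759.2 CPM (657.4 to 872.3). In sGC ∆PC the levels were 1105 CPM (909.5 to 1329) in 13 cells and 440.6 CPM (347.1 to 551.5) in 13 cells. *Ednra* was at 270.3 against 186.9 CPM in sGC Ctr, with overlapping intervals, and at 552.3 (417.2 to 717.2) against 110.2 CPM (66.32 to 172) in sGC ∆PC. Among the cells at or below the median, the log2 ratio of sGC ∆PC over sGC Ctr was 1.03 (0.47 to 1.59) for *Ednra* and -0.12 (-0.46 to 0.20) for *Ednrb*. Among the cells above it, the ratios were -0.76 (-1.61 to 0.03) and -0.79 (-1.19 to -0.40). The part of the contractile make-up in these values was not tested. The contractile list itself had 7 of its 8 genes with at least 50 UMIs, of which 2 were at least 2-fold lower in sGC ∆PC and none higher, among 2259 genes in pericyte-like cells of which 1.20% were at least 2-fold higher and 1.55% lower. Its median log2 ratio was -0.41, and the genes past 2-fold were *Myh11*, smooth muscle myosin heavy chain, at -1.37 and *Mustn1* at -2.04. *Acta2*, smooth muscle actin and by far the most abundant of the list, was at 3461 and 3629 CPM, from 1637 and 994 UMIs, a log2 ratio of 0.07 (-0.05 to 0.18). *Tagln* was at -0.51, *Myl9* at -0.41, *Actg2* at 0.10 and *Lmod1* at 0.26.

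Macrophage-like cells held a large part of the *Ednrb* RNA of the tumor. They carried 29.7% of all *Ednrb* UMIs of kept cells in sGC Ctr and 26.7% in sGC ∆PC, from 420 and 281 UMIs. The level was 15.98 CPM (14.49 to 17.58) and 12.59 CPM (11.16 to 14.16), and the receptor was found in 55 of 2100 and 62 of 2295 cells, 2.62% and 2.7%, at median depths of 11528.5 and 8774 UMIs. In granulocyte-like cells, far shallower at 2252 and 2542 UMIs, 1 of 211 and 1 of 263 had an *Ednrb* UMI, 0.474% and 0.38%. Thinned to 2000 UMIs, the macrophage-like shares were 0.909% (0.548% to 1.42%) of 2091 cells against 1.85% (1.3% to 2.55%) of 1947, and the granulocyte-like ones 0.73% (0.0185% to 4%) of 137 cells against 0% of 179 (0% to 2.04%). At equal depth the intervals of these shares therefore overlapped. The intervals of the levels did not, with granulocyte-like cells at 1.875 CPM (0.04746 to 10.44) and 1.419 CPM (0.03593 to 7.906). The part of free RNA in the macrophage-like value was not tested. The macrophage-like log2 ratio was -0.34 (-0.57 to -0.12), but it was 0.05 with a mitochondrial limit of 5%, 0.79 and 0.59 in the draws of thinned cells and 0.57 as a mean over cells, so its direction depended on the setting.

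The *Ednrb* level was highest in macrophage-like cells that also held *Folr2*, a folate receptor, and *Ccl8*, a chemokine, both known from resident macrophages. Where UMIs of both genes were found, *Ednrb* was at 61.16 CPM (55.33 to 67.43) in 419 cells of sGC Ctr and 43.05 CPM (37.63 to 49.02) in 375 cells of sGC ∆PC. Where only 1 of them was found it was at 0.819 and 3.505 CPM, and where neither was found at 1.046 and 2.434 CPM. Even in the first group *Ednrb* UMIs were present in 42 and 32 cells only, 10% and 8.53%. They were also present in 9 and 20 cells with only 1 of the genes, and in 4 and 10 cells with neither. This split was chosen after the values were seen.

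Macrophage-like cells with at least 2 *Ednrb* UMIs, 30 and 35 in number, were compared with those holding none. Genes were again ranked by the smaller of their differences in the 2 libraries, so agreement between the libraries is built into the ranking. Median depth was 18312.5 against 11450 UMIs in sGC Ctr and 8969 against 8852 UMIs in sGC ∆PC. *Ccl8* was at 8791 CPM in them against 268.5 CPM in cells with no *Ednrb* UMI in sGC Ctr, and at 8084 against 266.1 CPM in sGC ∆PC. *Lyve1*, a hyaluronan receptor of perivascular macrophages and lymphatic vessels, was at 1129 against 25.82 CPM and at 1082 against 13.96 CPM. *Cd163*, the hemoglobin scavenger receptor, was at 615.9 against 8.121 CPM and at 196.2 against 5.116 CPM. The median endothelial and pericyte scores of these cells were 0 in both libraries, as they were in the macrophage-like cells with no *Ednrb* UMI. Their median cancer cell score was 0.207 against 0.203 in sGC Ctr and 0.288 against 0.177 in sGC ∆PC. The part of cancer-cell RNA in these values was not tested.

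**Figure D4:**
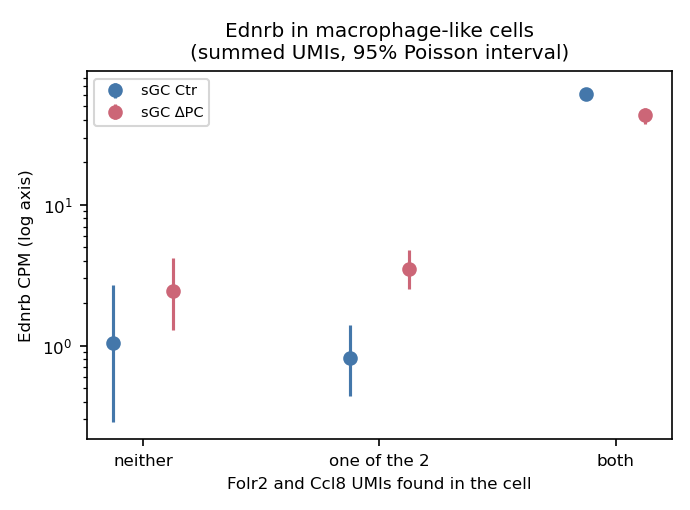
*Ednrb* level in CPM (log axis) in macrophage-like cells of sGC Ctr (blue) and sGC ∆PC (red), split by whether UMIs of neither, one or both of *Folr2* and *Ccl8* were found, with 95% Poisson intervals. The level was 61.16 and 43.05 CPM with both and below 4 CPM in the other groups.

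*Adra2a*, a Gi-coupled receptor for adrenaline and noradrenaline, had the largest difference of the 6 genes in pericyte-like cells. There were 44 UMIs in 14 of 38 cells in sGC Ctr, at 93.03 CPM (67.59 to 124.9), and 5 UMIs in 3 of 26 cells in sGC ∆PC, at 18.26 CPM (5.928 to 42.6). The highest sGC Ctr cells held 8, 7 and 6 UMIs, and the 3 positive sGC ∆PC cells held 3, 1 and 1. The log2 ratio was -2.35 (-4.04 to -1.02), a level 5.1-fold lower in sGC ∆PC. Its 49 UMIs in all lay 1 short of the 50 that a gene needed to enter the count of 2-fold genes, so it belongs to no such count.

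The size of the *Adra2a* difference was not well fixed. It was -1.30 (-2.25 to -0.43) without the limit on cancer-cell RNA, which admitted 15 UMIs in 47 sGC ∆PC cells, and -1.27 with a mitochondrial limit of 5%, where 23 and 12 cells were left and the interval of -3.25 to 0.26 included no difference. Without the top cell of each library it was -3.34 (-6.44 to -1.38). By contractile level, *Adra2a* in sGC Ctr was at 122.1 CPM (83.51 to 172.3) above the median contractile level and 56.91 CPM (29.4 to 99.4) at or below it. In sGC ∆PC all 5 UMIs lay above it, at 28.99 CPM (9.412 to 67.65), and none at or below it, which an exact interval bounds at 36.38 CPM. The intervals overlapped in both libraries. *Myh11* and *Mustn1* were lower in sGC ∆PC in the same cells and *Acta2* was not, as given above, and their part in the *Adra2a* value was not tested.

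In fibroblast-like cells, by contrast, *Adra2a* was nearly equal between the libraries. It was at 20.87 CPM (15.76 to 27.1) in sGC Ctr, from 56 UMIs in 21 of 120 cells, and at 22.83 CPM (16.84 to 30.27) in sGC ∆PC, from 48 UMIs in 21 of 172 cells. The log2 ratio was 0.13 with an interval from -0.46 to 0.71, and it was 1.03 (-1.58 to 4.42) in the first draw of thinned cells, which left 2 and 5 UMIs. Pericyte-like cells therefore stood above fibroblast-like cells in sGC Ctr without overlap, while in sGC ∆PC the intervals of these classes overlapped. *Adra2a* was found in 2 of 55 EC-like cells of sGC Ctr and in none of 47 of sGC ∆PC.

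*Adra2a* and *Ednra* fibroblasts shared leading genes. Fibroblast-like cells with at least 2 *Adra2a* UMIs, 13 and 12 in number, held *Thbs4*, thrombospondin-4, at 381.8 CPM against 30.59 CPM in cells with none in sGC Ctr and at 323 against 30.23 CPM in sGC ∆PC. *Spp1*, osteopontin, was at 25294 against 4246 CPM and at 20781 against 6762 CPM. In fibroblast-like cells with at least 2 *Ednra* UMIs, 28 and 21 in number, *Spp1* was at 12390 against 4247 CPM and at 17854 against 4371 CPM, and *Adra2a* itself at 48.33 against 10.71 CPM and at 47.07 against 10.62 CPM. In sGC ∆PC such cells were much deeper than those with no UMI, with a median of 25203 against 3489 UMIs for *Ednra*, while in sGC Ctr the medians were 21883 and 22372.

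*Agtr1a*, the type 1a angiotensin II receptor, had a log2 ratio near 0 in pericyte-like cells under the reported filters. Pericyte-like cells were at 71.88 CPM (49.78 to 100.5) in sGC Ctr, from 34 UMIs in 21 of 38 cells, and at 73.02 CPM (44.6 to 112.8) in sGC ∆PC, from 20 UMIs in 12 of 26 cells. The log2 ratio was 0.02, but the interval of -0.85 to 0.86 leaves room for nearly 2-fold either way. It was -0.71 (-2.46 to 0.73) with a mitochondrial limit of 5%, at 71.06 against 43.57 CPM, and -0.83 (-2.39 to 0.46) with a cancer-cell RNA limit of 10%, at 75.13 against 42.12 CPM. Fibroblast-like cells came second at 6.335 and 7.136 CPM, from 17 and 15 UMIs. No UMI was found in EC-like cells, which allows up to 1.936 and 2.87 CPM, nor in macrophage-like cells, which allows up to 0.1141 and 0.1345 CPM.

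**Figure D5:**
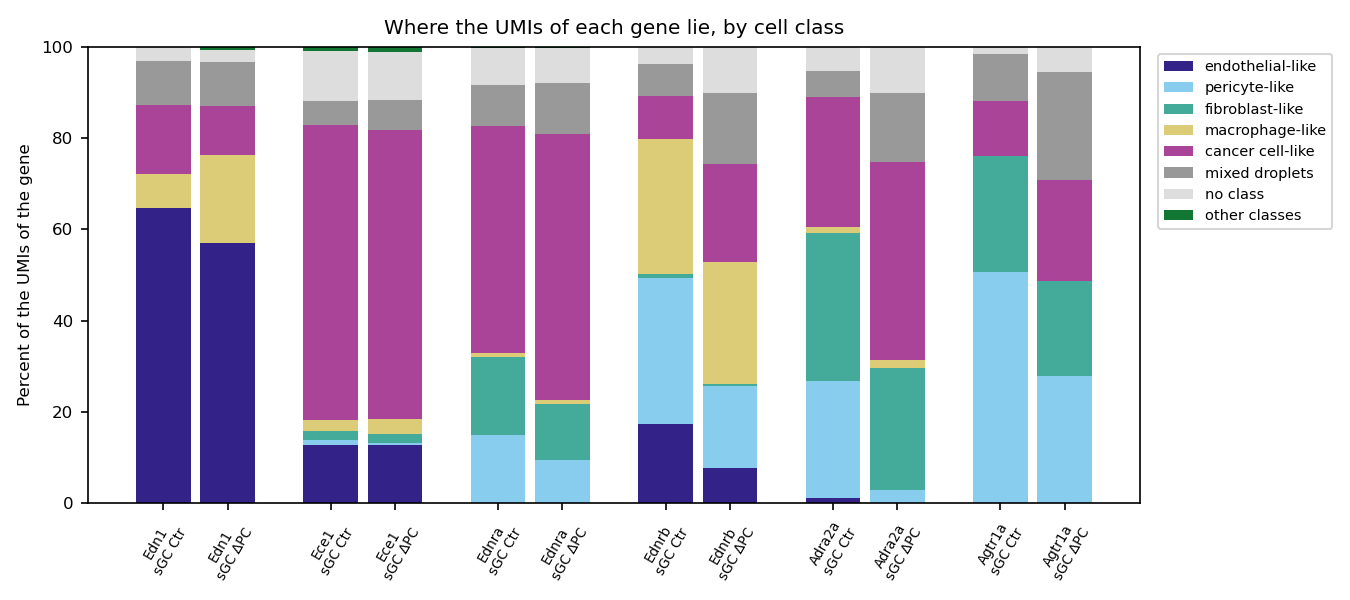
Percent of all UMIs of each gene in kept cells that lay in each cell class, in mixed droplets or in cells of no class, with 1 bar per gene and library. EC-like cells held 64.7% and 57% of *Edn1*, pericyte-like cells 50.7% and 27.8% of *Agtr1a*, and cancer cell-like cells 64.7% and 63.5% of *Ece1*. These percentages follow class size as well as level.

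Summed over all kept cells, EC-like cells were the largest single source of *Edn1*. They were 0.45% of kept cells in sGC Ctr, 0.209% in sGC ∆PC, and held 64.7% and 57% of its UMIs. For *Ednra*, cancer cell-like cells held 49.8% and 58.4% of UMIs at 0.9052 and 1.388 CPM, with 266 of 6808 and 353 of 12202 cells positive. Pericyte-like cells, 0.311% and 0.116% of kept cells, held 32.1% and 17.8% of *Ednrb* and 25.6% and 2.79% of *Adra2a*. Such a share follows the size of the class as well as the level. For *Agtr1a* it was 50.7% and 27.8%, at 71.88 and 73.02 CPM. Mixed droplets took 7.15% and 15.7% of *Ednrb* and 10.4% and 23.6% of *Agtr1a*, beside 4.54% and 10% of all kept cells.

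Few genes of the wider pathway lists were past 2-fold. Of 9 endothelin axis genes, 3 had at least 50 UMIs in EC-like cells, with *Edn1* above and *Ednrb* below 2-fold, and 3 in pericyte-like cells, with none past 2-fold either way. That stands beside 0.700% higher and 0.900% lower among all genes counted in EC-like cells, and 1.20% and 1.55% in pericyte-like cells, and nothing is read from it because the genes of this list that were counted are those chosen for these values. The medians were 0.36 and -0.48, against medians of all genes at -0.00 and -0.07. No UMI was found in either library for 5 of the 9 in each class. *Ece1* was the most abundant of the list in EC-like cells and *Ednrb* in pericyte-like cells.

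Of the 25 other vasoactive receptors, 7 had at least 50 UMIs in EC-like cells, 1 was at least 2-fold lower in sGC ∆PC and none was higher, beside 0.900% and 0.700% of all genes counted, with a median log2 ratio of -0.22. The lower gene was *Ramp3*, a protein that pairs with the calcitonin receptor-like receptor to bind adrenomedullin, with 248 and 49 UMIs at 160.1 and 46.88 CPM and a log2 ratio of -1.77 (-2.24 to -1.32). Its partner *Calcrl* was at 74.87 and 88.01 CPM, a log2 ratio of 0.23 (-0.18 to 0.64). *Ramp2*, which forms the other adrenomedullin receptor, had the most UMIs of the list, 1071 and 610, at 691.3 and 583.6 CPM, a log2 ratio of -0.24. In pericyte-like cells 2 genes were counted and neither passed 2-fold, beside 1.20% higher and 1.55% lower among all genes counted there. *S1pr3*, a sphingosine-1-phosphate receptor, had the most UMIs there, 132 and 63, at 279.1 and 230 CPM, a log2 ratio of -0.28 (-0.74 to 0.16).

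Of 11 renin-angiotensin genes, 2 were counted in EC-like cells and 1 in pericyte-like cells, *Agtr1a* itself, and none passed 2-fold. That stands beside 0.700% higher and 0.900% lower among all genes counted in EC-like cells, and 1.20% and 1.55% in pericyte-like cells. *Atp6ap2*, the prorenin receptor, had the most UMIs in EC-like cells, 52 and 39, at 33.56 and 37.31 CPM. *Ace*, which makes angiotensin II, was at 29.04 and 18.18 CPM, a log2 ratio of -0.68 (-1.53 to 0.13). None of the 9 adrenoceptors reached 50 UMIs in either class. *Adra2a* had the most UMIs of them in pericyte-like cells.

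The G protein and calcium arm carries the signal of the endothelin, angiotensin and other receptors. It had 10 of 16 genes counted in EC-like cells and 7 in pericyte-like cells, and none was 2-fold apart in either direction. Of all genes counted, 0.700% were at least 2-fold higher and 0.900% lower in EC-like cells, and 1.20% and 1.55% in pericyte-like cells. With so few genes in the list, nothing is read from a count of none. The medians of the arm were 0.10 and -0.16. *Gna11*, a Gq-family alpha subunit, had the most UMIs in EC-like cells, 185 and 124, at 119.4 and 118.6 CPM, a log2 ratio of -0.01 (-0.35 to 0.33). *Rgs5*, a brake on Gq and Gi signaling that also served as a pericyte marker, had the most in pericyte-like cells, 2167 and 1278, at 4582 and 4666 CPM, a log2 ratio of 0.03 (-0.07 to 0.13).

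The genes whose levels most resembled those of each gene were taken from 15914 genes over 16 profiles, 8 classes in 2 libraries. The profiles share the libraries and are dominated by the contrast between classes, and the Pearson correlations of log2(CPM + 1) are a description. Nearest to *Edn1* were *Palmd* (r = 0.971), *Tspan7* (0.968) and *Dll4* (0.958), the Notch ligand of arterial and sprouting ECs. *Plcb4*, a phospholipase C that Gq activates, had the highest r with *Ece1* (0.914), before *Adcy4* (0.912) and *Prr5* (0.894). *Pla2r1* (0.978), *Aspn* (0.977) and *Cygb* (0.976) were nearest to *Ednra*.

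For *Ednrb* the nearest genes were *Pcp4l1* (0.962), *Lims1* (0.933) and *Gm10687* (0.932). Those of *Adra2a* were *Mirg* (0.983), *Ebf2* (0.980) and *Hoxc10* (0.979). *Agtr1a* resembled *Hspb2* (0.997), *4833422C13Rik* (0.997) and *Pde3a* (0.996), a phosphodiesterase that cyclic GMP inhibits. Among the 6 genes themselves, *Ednra*, *Adra2a* and *Agtr1a* lay close together (0.933 to 0.960), whereas *Edn1* and *Ednra* had an r of -0.381 and *Edn1* and *Ednrb* one of 0.347.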

How the data were processed

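Single cells of LLC tumors were profiled with a 10x Genomics 3′ kit (v3.1 per the labels), 1 library per genotype, and the reads were aligned to mm10 and counted by the authors (Cell Ranger 6.1.1). The deposited values are raw UMI counts per gene and barcode. A barcode was dropped when mitochondrial UMIs reached 10%, or when its log UMIs or log genes lay more than 3 median absolute deviations away from the median of its library. A class score was the mean over its markers of ln(1 + UMIs per 10000), with a cut and a minimum number of markers per class, set after inspecting the score distributions. No doublet caller was run. Barcodes passing more than 1 gate, the cancer cell gate not counted, were set apart. So were those passing just 1 of the counted gates with a cancer-cell RNA share of 25% or more.

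UMIs were summed per class and library and divided by the class total (CPM). With 1 library per group there is no test. Intervals are exact (95%): Poisson for levels, Clopper-Pearson for shares, conditional binomial for ratios. They cover counting error only. A gene entered the 2-fold counts with at least 50 UMIs over both libraries, and 0.5 counts were added only where 1 library held none. A count of 0 was bounded by 3 counts. Cells were thinned to 2000 UMIs in 2 independent random draws, and shares were taken from the first. Leading genes needed at least 20 UMIs in each library. On simulated counts for 5998 EC-like and 2259 pericyte-like genes, the intervals covered 96% and 96.7% of unchanged genes. Those counts were drawn from the Poisson model that the intervals assume, without clumping of UMIs in single cells. The coverage therefore checks the calculation only and does not carry over to these data.

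The genes, lists and gates were chosen with earlier results of these data known. Besides the 6 genes, the text names from each list the genes past 2-fold with at least 50 UMIs in EC-like or pericyte-like cells and the most abundant gene in each of these classes, the 3 most similar genes, *Gucy1b1*, *Cspg4* and class markers. One gene that this rule names is not reported here. *Calcrl*, *Ace* and the leading genes were named after their values were seen. Python 3.11.15, numpy 2.4.6, scipy 1.17.1, pandas 2.3.3 and matplotlib 3.10.9 were used. Gene positions came from GENCODE vM21 and promoter windows from RefSeq (GRCm38.p6).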

Additional observations from a re-analysis of the deposited data

Results flagged for a closer look

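*Ednrb* was lower in sGC ∆PC in 3 cell classes and higher in cancer cell-like cells, with each interval on its own side of 0. The cancer cell-like level was 0.334 CPM in sGC Ctr, from 131 UMIs in 75 of 6808 cells, and 0.679 CPM in sGC ∆PC, from 227 UMIs in 144 of 12202 cells, a log2 ratio of 1.02 (0.71 to 1.34). The fold of sGC ∆PC over sGC Ctr in cancer cell-like cells was 4.08 times that in EC-like cells, 2.84 times that in pericyte-like cells and 2.58 times that in macrophage-like cells. *Edn1*, *Adra2a* and *Ednra* were higher in cancer cell-like cells too, with log2 ratios of 1.08 (0.25 to 1.94), 0.90 (0.37 to 1.45) and 0.62 (0.41 to 0.82). *Agtr1a* was at 1.23 from 8 and 16 UMIs, with an interval of -0.08 to 2.66 that includes no difference. *Ece1* was at -0.01 (-0.08 to 0.07). All of these but *Ece1* were at under 2 CPM. The cancer cell-like class itself differed between the libraries. With sGC ∆PC its median depth was 14424.5 UMIs, against 52375 for sGC Ctr. Its median macrophage score was 0.237 against 0.124, and its median fibroblast score 0.601 against 0.521. The part of depth, or of macrophage and fibroblast RNA, in these ratios was not tested. The log2 ratios of the cancer cell-like class were not repeated under the alternative settings. Of 15256 genes with at least 50 UMIs in that class, 4.63% were at least 2-fold higher in sGC ∆PC and 0.144% lower, around a median of 0.01. The macrophage-like ratio of *Ednrb*, -0.34, turned upward in 4 alternative settings, to between 0.05 and 0.79. With 1 library per genotype these differences were not tested. In sGC Ctr the 3 highest cancer cell-like cells held 32.1% of the UMIs.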

How the results depend on the processing

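Of 98 alternative values of the log2 ratios in EC-like and pericyte-like cells, 83 stayed within the interval of the reported value and 15 moved outside it. For *Edn1* in EC-like cells these were 2.13 with a mitochondrial limit of 5%, 2.40 with a cancer-cell RNA limit of 10%, 2.27 without the top cells, 1.05 as a mean over cells, and 0.86 and 0.61 in 2 random draws of thinning, the first of them added after seeing the data. These draws gave -1.55 and -0.19 for *Ednrb* and 0.42 and 0.95 for *Ece1* in EC-like cells, the 5% limit moved *Ednrb* to -1.41, and both draws left no *Adra2a* UMI in the pericyte-like cells of sGC ∆PC. In pericyte-like cells *Ednrb* was -0.83 without the cancer-cell RNA limit and -1.08 with a limit of 10%. Chosen after seeing the data, pericytes at or below the median contractile level gave 1.03 for *Ednra* and -0.12 for *Ednrb*, and keeping droplets of 2 gates gave 0.25 for *Ece1*. The macrophage-like *Ednrb* ratio turned to 0.05 with the 5% limit, 0.79 and 0.59 thinned and 0.57 as a mean over cells. Genes 2-fold higher in EC-like cells numbered 42, and 67 with the 5% limit. In pericyte-like cells 27 were higher, against 15 with the 5% limit, 45 without a cancer-cell RNA limit and 13 with 10%, and 35 were lower, against 58 and 62 with the latter settings. The causes were not tested. The count of 83 includes values that could hardly move. Dropping the depth filter left the EC-like and pericyte-like counts unchanged, and the median gene that ratios were set against lay at -0.00 and -0.07. A wide interval, such as -4.04 to -1.02 for *Adra2a*, also takes in most values. With 38 and 26 pericyte-like cells, *Adra2a* and *Agtr1a* rest on 49 and 54 UMIs. No paired analysis was possible because each genotype has 1 library.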

Other observations

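In the mixed droplets and the cells of no class, which enter no comparison, 13 and 4 *Edn1* UMIs were found in sGC Ctr and 32 and 9 in sGC ∆PC. For *Ednrb* these were 101 and 51 UMIs in sGC Ctr and 165 and 105 in sGC ∆PC. Among genes too low for the 2-fold counts, *Npy1r*, the neuropeptide Y receptor that couples to Gi as *Adra2a* does, had 16 and 1 UMIs in pericyte-like cells, 33.83 and 3.651 CPM, and *Adora2a*, an adenosine receptor, had 29 and 6 in EC-like cells, 18.72 and 5.74 CPM. *Htr2a*, a serotonin receptor, had 1 and 8 UMIs in EC-like cells. These 3 genes were picked after their values were seen.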
